A study of Rattus norvegicus with 8 samples.

Results

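The EGF receptor system of the kidney was described here by 10 genes. They are 6 ligands (Egf, Hbegf, Tgfa, Areg, Ereg and Btc), 3 receptors (Egfr, Erbb2 and Erbb3) and Errfi1, a feedback inhibitor. They were chosen by name among 14400 gene symbols on the array, and all 10 were matched, through 11 gene probes. Messenger RNA came from the right kidney of male rats of the inbred strain F344/NSlc at an age of 10 weeks. There were 4 samples after unilateral nephrectomy, in which the opposite kidney is taken out, and 4 after a sham operation. The series text places sampling 2 days after the operation, whereas the source label gives day 2 for the nephrectomized samples and day 1 for the sham samples, so the groups may also have differed in time after surgery. All animals were males of 1 strain, and no other treatment or allele is given. The labels number the samples of each group without saying that each is a different animal, so p-values measure the spread between these samples, called rats below.

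Ligands of this family are made as membrane proteins and released by cutting. They bind Egfr or the related receptors, which pair, phosphorylate each other and switch on the Ras-ERK and PI3K pathways of growth and division. Errfi1, also called Mig6, gene 33 or Ralt, binds the active Egfr kinase, blocks it and sends the receptor to lysosomes, and growth factors, stress and glucocorticoids are known to induce it. In the kidney Egf is made in large amounts by the thick ascending limb and the distal convoluted tubule, and tubule cells carry Egfr.

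Errfi1, Egfr and Areg gave the smallest unadjusted p-values of the family, all with lower values after nephrectomy, and their promoters are shown for that reason. Each window runs from 250 bases before to 50 bases after the start of the gene, 5′ to 3′ on the gene's strand, from RefSeq on the GRCr8 assembly, and capitals mark the motifs found.
Errfi1, GRCr8 chr5:166606591-166606890, plus strand: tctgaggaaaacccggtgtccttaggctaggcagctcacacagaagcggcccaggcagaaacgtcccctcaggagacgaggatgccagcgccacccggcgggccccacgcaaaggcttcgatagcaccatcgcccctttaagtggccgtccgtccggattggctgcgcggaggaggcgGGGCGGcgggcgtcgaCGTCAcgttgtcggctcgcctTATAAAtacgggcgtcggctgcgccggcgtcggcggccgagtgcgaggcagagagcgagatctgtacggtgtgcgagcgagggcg
Egfr, GRCr8 chr14:95378376-95378675, plus strand: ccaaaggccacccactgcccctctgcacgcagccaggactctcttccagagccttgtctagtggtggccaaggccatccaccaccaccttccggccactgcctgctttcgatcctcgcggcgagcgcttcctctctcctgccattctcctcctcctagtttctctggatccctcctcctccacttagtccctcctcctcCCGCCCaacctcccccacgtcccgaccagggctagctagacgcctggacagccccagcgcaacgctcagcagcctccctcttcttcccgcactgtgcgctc
Areg, GRCr8 chr14:17265592-17265891, minus strand: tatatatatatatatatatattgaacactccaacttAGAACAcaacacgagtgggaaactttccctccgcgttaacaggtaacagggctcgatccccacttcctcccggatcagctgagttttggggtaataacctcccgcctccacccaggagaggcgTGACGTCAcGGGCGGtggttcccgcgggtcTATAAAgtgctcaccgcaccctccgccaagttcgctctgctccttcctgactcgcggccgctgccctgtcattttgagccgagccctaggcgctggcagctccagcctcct

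The motifs searched on both strands were the AP-1 motif TGANTCA, the cAMP response element TGACGTCA, its core TGACG (part of the full element), the core AGAACA of glucocorticoid receptor sites, the E-box CACGTG, the GC box GGGCGG and the TATA box TATAAA. The list was chosen after the expression values were seen. The Errfi1 window held a GC box that begins 72 bases before the start, the cAMP core at 56, on the opposite strand, and a TATA box at 35. The Areg window held the full cAMP element 91 bases before the start, followed by a GC box at 82 and a TATA box at 61, and the glucocorticoid receptor core at 214. The Egfr window held a GC box alone, at 51, on the opposite strand. Among 33469 rat promoter windows of the same length, 1.83% held the full cAMP element, 21.2% its core, 20.7% the glucocorticoid receptor core, 33.1% the GC box and 14.2% the TATA box. The AP-1 motif (7.33% of windows) and the E-box (6.42%) had no match in these 3 windows. A match is a description of the letters and not a measured binding site.

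Each RNA was hybridised to its own 1-colour array, 4 arrays on each of 2 slides, and every slide held 2 nephrectomized and 2 sham rats. Levels are log2 signals minus the 75th percentile of the array, so 0 stands for that percentile. Levels of different probes are not compared as amounts of mRNA. Where they are combined, in Egf minus its segment markers and in sums of markers, only the groups are compared. Between 54.8% (sham rat 1) and 65.5% of the gene probes were well above background, and the correlation between arrays, taken over genes that are no independent replicates, was 0.984 to 0.996. Of the genes tested, 714 of 19865 (3.59%) had an adjusted p under 0.05 by limma, with the Benjamini-Hochberg method over all genes. Only 9925 of the 19865 had a gene symbol. The rest were counted by the array's own sequence name, so a gene may be counted more than once. Shares of all genes are over this mix. After nephrectomy 2.57% of all genes were higher and 1.02% lower, and the count of 203 lower genes ranged from 57 without nephrectomized rat 4 to 223 without sham rat 1 when 1 rat was left out. With 4 arrays per group, the number of arrays limits the precision. The values are relative to the other mRNA of a sample, and in whole kidney fewer cells of a type and less mRNA per cell cannot be told apart.

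Errfi1 fell after nephrectomy and was the only member past the threshold in the comparison of all genes. Its level was 5.47, 5.88, 5.77 and 5.95 in nephrectomized rats 1 to 4, against 6.48, 6.35, 6.63 and 6.37 in sham rats 1 to 4. Every nephrectomized rat lay below every sham rat, and nephrectomized rat 1 was the lowest of all. As multiples of the array's 75th percentile, the signal was 44.2 to 61.9 in nephrectomized rats and 81.7 to 98.9 in sham rats. The mean level was 5.77 ± 0.21 after nephrectomy and 6.46 ± 0.13 after sham operation (SD, n = 4 each). This made Errfi1 1.61-fold lower (95% interval 1.34 to 1.94), a log2 fold change of -0.69 (SE 0.12, adjusted p = 0.0157 by limma). The difference was -0.74 on slide 1 and -0.64 on slide 2. The adjusted p was 0.0698 when dim probes were kept, 0.0741 with the replicate number as a block and 0.0523 without sham rat 3 (log2 fold change -0.63), so that each of these choices ended the call. Within slides 1 and 2 the adjusted p by limma was 0.393 and 0.23. With 2 rats per group those fits called 0 and 4 of 19865 genes lower, so they could hardly have kept a call. The array carries 1 Errfi1 probe with 1 spot.

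**Figure D1:**
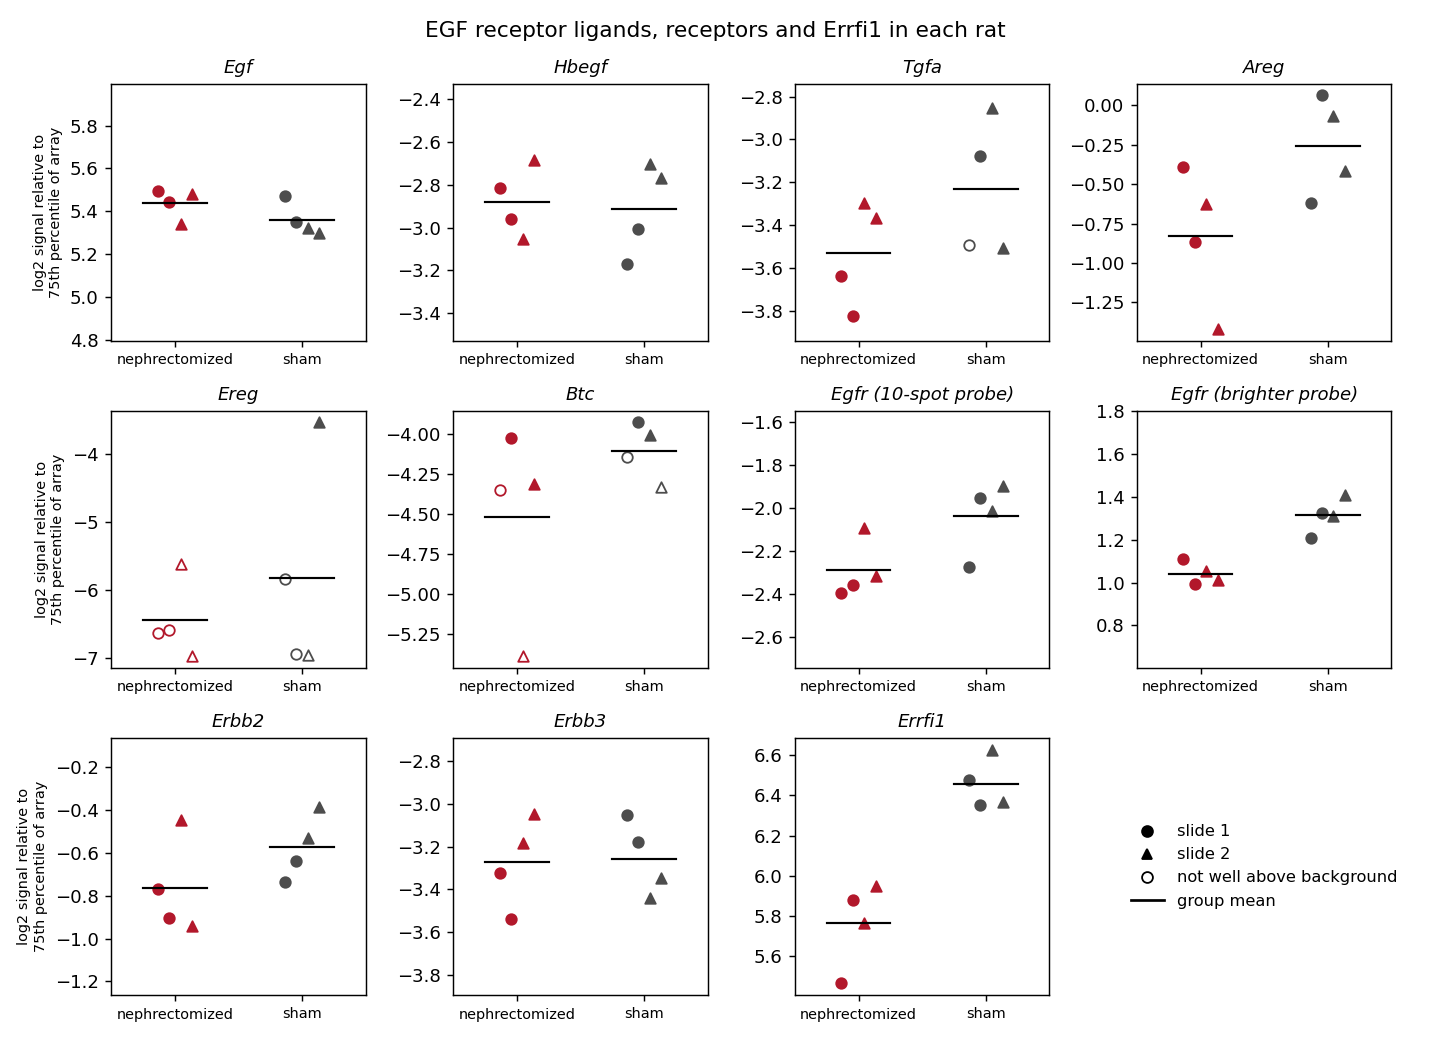
Level of each of the 11 probes of the 10 genes in each rat. The vertical axis is the log2 signal relative to the array's 75th percentile, with its own range in each panel; circles are slide 1, triangles slide 2, open symbols are not well above background, and lines are group means. The Errfi1 values lie between 5.47 and 5.95 in nephrectomized rats and between 6.35 and 6.63 in sham rats.

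The receptor Egfr, the kinase that Errfi1 restrains, had a lower mean after nephrectomy on both of its probes, by similar amounts, and did not pass the threshold. On the brighter probe the level was 1.11, 0.99, 1.05 and 1.01 in nephrectomized rats, against 1.21, 1.32, 1.31 and 1.41 in sham rats. The groups did not overlap on this probe, and the spread within each was small (SD 0.05 after nephrectomy and 0.08 after sham operation, n = 4 each). The log2 fold change was -0.27 (95% interval -0.42 to -0.13, adjusted p = 0.0566 by limma), with -0.22 on slide 1 and -0.33 on slide 2. The other probe was printed 10 times on each array, and its spots differed within an array by an SD of 0.051 to 0.164. It gave -2.39, -2.36, -2.09 and -2.32 in nephrectomized rats and -2.27, -1.96, -2.01 and -1.90 in sham rats. Here nephrectomized rat 3 and sham rat 1 crossed, and the log2 fold change was -0.26 (adjusted p = 0.252 over all probes by limma). Egfr passed without sham rat 1, the array with the fewest probes above background (log2 fold change -0.31, adjusted p = 0.0432), with an intensity trend and robust estimation (adjusted p = 0.038) and with array weights (adjusted p = 0.00928).

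Erbb2, a receptor that binds no known ligand and acts as the partner of the others, was also on a probe of 10 spots. Its level was -0.77, -0.90, -0.44 and -0.94 in nephrectomized rats, against -0.73, -0.64, -0.53 and -0.38 in sham rats. Nephrectomized rat 3 lay within the sham range and the other nephrectomized rats below it. The log2 fold change was -0.19 (95% interval -0.48 to 0.09, adjusted p = 0.471 by limma), or -0.30 without nephrectomized rat 3 (adjusted p = 0.149) and -0.34 with array weights (adjusted p = 0.0529). The spots of one array differed by an SD of 0.055 to 0.14, against an SD between rats of 0.23 after nephrectomy and 0.15 after sham operation. Erbb3, a receptor of neuregulins with little kinase activity of its own, had -3.32, -3.54, -3.18 and -3.05 in nephrectomized rats and -3.05, -3.18, -3.44 and -3.35 in sham rats. The groups overlapped throughout, with a log2 fold change of -0.02 (95% interval -0.30 to 0.26, adjusted p = 0.96). The sign differed between slides, -0.31 on slide 1 and 0.28 on slide 2.

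Of the ligands, Areg (amphiregulin), which binds Egfr alone, had the most negative log2 fold change of those measured, and did not pass. Its level was -0.39, -0.87, -0.63 and -1.42 in nephrectomized rats, against -0.62, 0.06, -0.07 and -0.42 in sham rats. Nephrectomized rat 4 was the lowest, and nephrectomized rat 1 lay above sham rats 1 and 4, so the groups overlapped. The log2 fold change was -0.57 (95% interval -1.10 to -0.04, unadjusted p = 0.0391, adjusted p = 0.251 by limma), or -0.37 without nephrectomized rat 4 (adjusted p = 0.461). It was -0.35 on slide 1 and -0.78 on slide 2. Areg passed in 1 of the same 20 alternatives, array weights, at a log2 fold change of -0.88 (adjusted p = 0.037 by limma). That setting called 1129 of 19865 genes lower, against 203 without the weights.

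Egf, the ligand that the tubule secretes into the urine, gave the narrowest interval of the ligands. Its 10-spot probe read 5.49, 5.45, 5.34 and 5.48 in nephrectomized rats, against 5.47, 5.35, 5.32 and 5.30 in sham rats. The groups overlapped, and the fold was 1.06 (95% interval 0.953 to 1.17, adjusted p = 0.581 by limma). The interval thus leaves out a rise of more than 1.17-fold and a fall of more than 1.05-fold. Spots of one array differed by an SD of 0.025 to 0.142, and rats by an SD of 0.069 after nephrectomy and 0.078 after sham operation.

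The level of Egf was also read against 11 other genes of the thick ascending limb and distal convoluted tubule, among them Umod, which encodes uromodulin, and the salt transporters Slc12a1 and Slc12a3. Egf minus the mean of these markers was 2.42, 2.37, 2.45 and 2.43 in nephrectomized rats, against 2.39, 2.33, 2.35 and 2.32 in sham rats. Nephrectomized rat 2 lay below sham rat 1, and the other nephrectomized rats lay above every sham rat. The difference of the means was 0.07 (p = 0.0571, exact permutation test, two-sided, where 0.0286 is the smallest p that 4 against 4 samples allow). It was 0.04 on slide 1 and 0.11 on slide 2. The exact permutation test gave p = 0.0286 with normexp background correction, 0.114 with quantile normalization and 0.0571 to 0.0857 with each rat left out. The markers themselves averaged 3.02 ± 0.084 in nephrectomized rats and 3.01 ± 0.049 in sham rats (SD, n = 4 each).

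Hbegf, the heparin-binding ligand, had -2.82, -2.96, -3.05 and -2.68 in nephrectomized rats, against -3.17, -3.01, -2.70 and -2.77 in sham rats. The highest value was in nephrectomized rat 4 and the lowest in sham rat 1, the groups overlapped, and the log2 fold change was 0.03 (95% interval -0.25 to 0.32, adjusted p = 0.92). It was 0.20 on slide 1 and -0.13 on slide 2. Tgfa (transforming growth factor alpha) had -3.64, -3.83, -3.30 and -3.37 in nephrectomized rats, against -3.49, -3.08, -2.85 and -3.51 in sham rats. It was well above background in 4 of 4 nephrectomized and 3 of 4 sham rats, the groups overlapped, and the log2 fold change was -0.30 (95% interval -0.70 to 0.10, adjusted p = 0.433 by limma). It was -0.05 with normexp background correction and -0.17 without sham rat 3.

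Ereg (epiregulin) and Btc (betacellulin), which bind Egfr and Erbb4, did not pass the filter on dim probes and have no call. Ereg was well above background in 0 of 4 nephrectomized rats and 1 of 4 sham rats. Sham rat 4 had -3.53, whereas the other 7 values lay between -6.97 and -5.61. Btc was well above background in 2 of 4 rats of each group, with values of -5.39 to -4.03 after nephrectomy and -4.34 to -3.93 after sham operation. Ereg, Areg and Btc lie side by side on chromosome 14, with 0 other protein-coding genes between Areg and either neighbour (RefSeq, GRCr8).

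**Figure D2:**
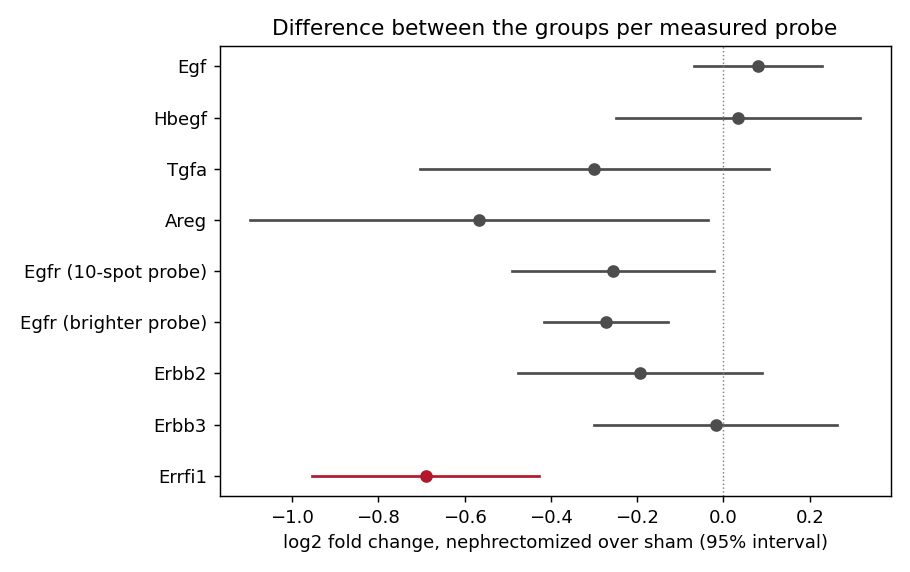
Log2 fold change, nephrectomized over sham, of each probe that passed the filter, with its 95% interval from limma. Only the Errfi1 point, at -0.69, is past an adjusted p of 0.05 (red); the intervals of Egf, Hbegf, Tgfa, Erbb2 and Erbb3 include 0.

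Of the 8 measured members 1 passed, downward, beside 1.02% of all genes lower. The groups did not overlap for 2 members, Errfi1 and Egfr, both lower, beside 5.07% of all genes lower and 12.6% in either direction. An unadjusted p under 0.05 was reached by 3 of 8 members (Errfi1, Egfr and Areg), against 17.7% of all genes. The fold change was negative for 6 of 8 members, with a median of -0.23 on the log2 scale, against 50.1% of all genes and a median of 0.00 (-0.00041). With normexp background correction 5 of 8 were negative and the median was -0.09.

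Other genes of the pathway were taken from 5 lists of 64 genes in all. Of the 48 measured, 0 passed in either direction by limma, beside 3.59% of all genes. An unadjusted p under 0.05 was reached by 5 of the 48 (10.4%), against 17.7% of all genes. Among sheddases and their regulators, which release the ligands, 0 of 6 passed. Adam17, the main sheddase of Areg, Hbegf and Tgfa, had a log2 fold change of 0.08, Timp3, its inhibitor, -0.32 and Adam9 -0.19. In the rest of the ErbB family 0 of 3 passed, with -0.28 for the receptor Erbb4, 0.08 for the neuregulin Nrg2 and -0.12 for Nrg1. Among receptor brakes and trafficking genes 0 of 10 passed, and Cblb, a ubiquitin ligase for active receptors, had -0.31 (adjusted p = 0.247). Hgs, which sorts receptors to lysosomes, had -0.15 and Usp8, a deubiquitinase of endosomes, -0.11. The Ras-ERK and PI3K cascade had 0 of 19 past the threshold and a median of 0.01, with -0.15 for the PI3K subunit Pik3r1, 0.19 for Map2k2, which phosphorylates ERK, and 0.16 for Hras.

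Among genes that ERK signalling induces or that feed back on it, 0 of 10 measured passed, and 3 had an unadjusted p under 0.05. The list held 16 genes. Dusp6, Spry1 and Egr1 matched no probe, and Dusp4, Spred2 and Fosl1 did not pass the filter on dim probes, so these have no call. Myc, a transcription factor of growth, was -1.39, -1.61, -1.44 and -1.46 in nephrectomized rats, against -1.18, -0.76, -1.0 and -1.41 in sham rats, and sham rat 4 lay within the nephrectomized range (log2 fold change -0.38, adjusted p = 0.167). Etv5, an ETS factor, was 3.80, 3.28, 3.54 and 3.28 in nephrectomized rats, against 3.13, 3.19, 3.19 and 3.15 in sham rats. The groups did not overlap (log2 fold change 0.31, adjusted p = 0.203 by limma). This held for 1 of the 48 pathway genes (2.08%), beside 12.6% of all genes in either direction. Fos, an immediate early factor, was -3.77, -3.46, -3.08 and -2.84 in nephrectomized rats, against -4.27, -3.54, -3.72 and -4.06 in sham rats. Nephrectomized rat 1 lay within the sham range. Sham rat 1 was not well above background, so Fos passed the filter through the nephrectomized group alone, where it is higher, and its log2 fold change of 0.61 (adjusted p = 0.207) and its place among the 5 genes above rest in part on a value below background.

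The related ETS factor Etv4 had probes with different fold changes. It is named here because its second probe passed when every probe was tested on its own. The brighter probe gave a log2 fold change of 0.06 (SE 0.90, adjusted p = 0.985 over all probes by limma). Its level was -6.34, -2.21, -3.42 and -1.95 in nephrectomized rats, against -2.52, -4.06, -3.46 and -4.11 in sham rats. Only the value of -6.34, in nephrectomized rat 1, was not well above background. The fold change of 0.06 rests in part on that value, so it cannot decide whether the probes disagree. Nephrectomized rat 3 lay within the sham range, and nephrectomized rats 2 and 4 lay above it. The second probe was -3.31, -3.23, -3.36 and -3.01 in nephrectomized rats, against -4.14, -3.86, -4.95 and -4.52 in sham rats. Its groups did not overlap (adjusted p = 0.0275 over all probes by limma, beside 2.34% of all probes called higher). It was well above background in 4 of 4 nephrectomized rats and 1 of 4 sham rats, so it passed the filter only through the group where it is high, and the call is given as a description. With each sham value raised to at least the lowest signal well above background on its array, the ratio was 1.91-fold. This is not a lower bound, because a spot brighter than that signal can still be not well above background.

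**Figure D3:**
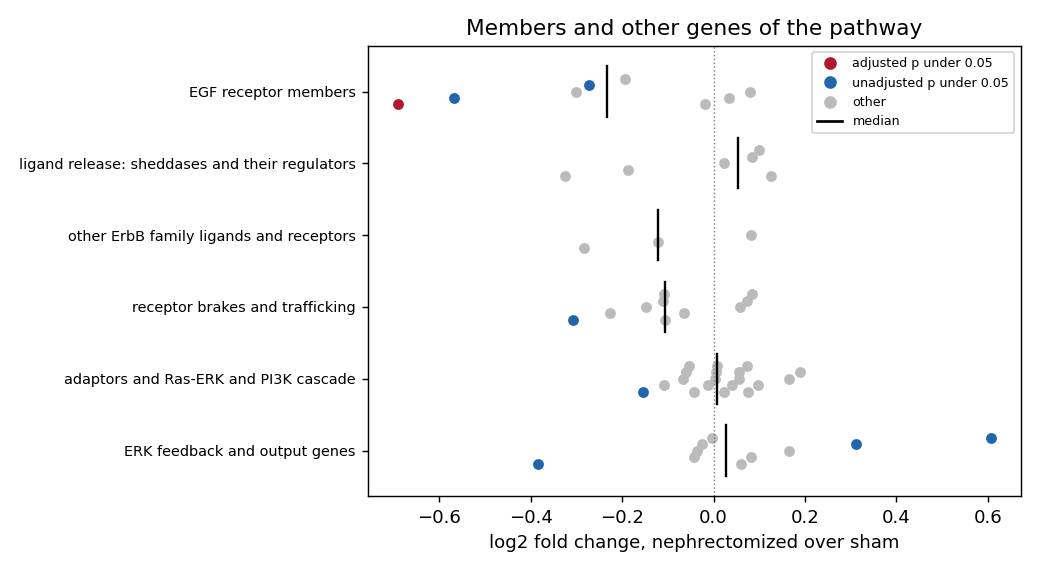
Log2 fold change, nephrectomized over sham, of the 8 measured members and of the 48 other measured pathway genes by list. Each point is a gene on its brightest probe, black lines are medians, red marks an adjusted p under 0.05 and blue an unadjusted p under 0.05; Errfi1 at -0.69 is the only red point.

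Markers of every tubule segment listed were measured in these kidneys. Of the 54 markers tested in all 1 passed, beside 3.59% of all genes in either direction and 1.02% lower. At that share, a count of 0 in a short list does not set its markers apart from other genes. All 10 proximal tubule markers were measured and 0 passed. The markers with the smallest p, with log2 fold changes in parentheses here and below, were Slc7a13 (-1.03), Lrp2 (-0.11) and Aqp1 (-0.17). Their summed level, in multiples of the 75th percentile, was 956 to 1010 in nephrectomized and 986 to 1039 in sham rats. Of 11 thick ascending limb and distal convoluted tubule markers 0 passed, led by Cldn10 (-0.27), Calb1 (0.21) and Bsnd (0.20), with sums of 756 to 939 in nephrectomized and 767 to 930 in sham rats. Of 9 collecting duct markers 0 passed (Scnn1g 0.15, Slc4a1 -0.16, Aqp3 0.09), with sums of 224 to 276 in nephrectomized and 218 to 274 in sham rats. Of 6 podocyte markers 0 passed (Cdkn1c -0.30 and Nphs1 1.08, the last resting on 1 low sham value), with sums of 51.2 to 61.5 in nephrectomized and 55.9 to 61.4 in sham rats. Of 7 endothelial markers 1 passed, Vwf, which fell by 0.32 (adjusted p = 0.0467), beside Pecam1 (-0.33) and Kdr (0.22), with sums of 28.8 to 31.2 in nephrectomized and 24.9 to 31.1 in sham rats. Leukocyte markers had 5 of 8 measured and 0 past the threshold (Ptprc -0.18, Cd68 0.21, Csf1r -0.15), with sums of 85.2 to 100.01 in nephrectomized and 82.2 to 98.8 in sham rats, while others, among them Cd3e and Itgam, were not above background throughout either group. Of 6 fibroblast and smooth muscle markers 0 passed (Col1a1 0.29, Pdgfra -0.06, Myh11 0.03), with sums of 23.9 to 28.9 in nephrectomized and 20.5 to 26.3 in sham rats. The part of any of these cell types in the lower Errfi1 signal was not tested.

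The genes whose levels most resembled those of 4 members over the 8 arrays were found among 9305 other named genes well above background on all arrays. For Errfi1 they were Tex264, a receptor for autophagy of the endoplasmic reticulum (Pearson's r = 0.964), Rpl7, a ribosomal protein (0.955), and Alox5ap, which activates 5-lipoxygenase (0.953). For Egfr they were the keratin Krt33a (0.970), Cfap119 (0.970) and Nudt2 (0.968). For Egf they were Atp5f1d, a subunit of ATP synthase (0.989), Rplp1, a ribosomal protein (0.981), and the kinase Grk2 (0.979), and for Hbegf the splicing factor Prpf38b (0.895), Hyal3 (0.870) and Zfp472 (0.868). These are the highest of many values over 8 arrays that share the scaling and the difference between groups, and they are given as a description.

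**Figure D4:**
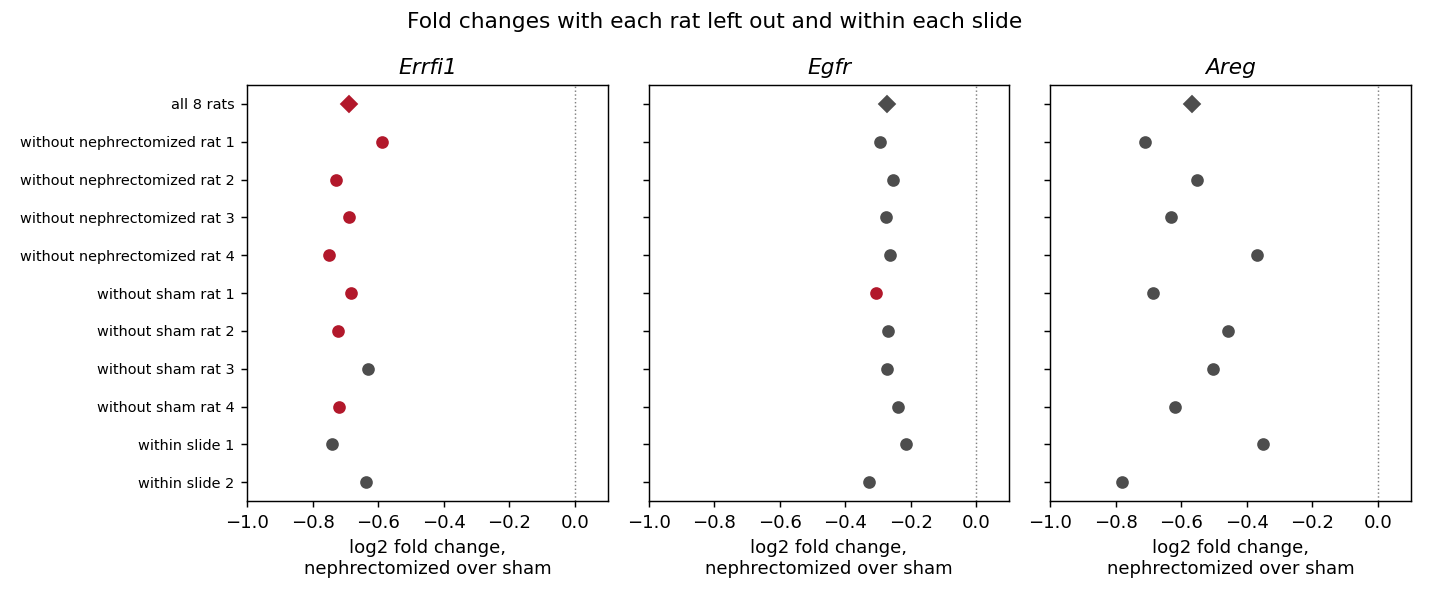
Log2 fold change, nephrectomized over sham, of Errfi1, Egfr and Areg with all 8 rats (diamond), with each rat left out, and within each slide; red marks an adjusted p under 0.05. Errfi1 stays between -0.75 and -0.59 when 1 rat is left out, Egfr between -0.31 and -0.24, and Areg between -0.71 and -0.37.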

How the data were processed

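Total RNA of 8 kidneys was labelled with Cy3 and hybridised to a 1-colour rat array (design 014879, annotation build rn4), per the file headers. The authors extracted the arrays with Agilent Feature Extraction 10.5.1.1 under the protocol GE1_105_Dec08. Per the file headers, the deposited intensity of a spot is background-subtracted within the array and not normalized between arrays. The deposited table of log2 values served as an alternative. It equals the log2 intensity scaled as here and centred on each probe's median (r = 0.9999 across probes), with column medians of -0.0169 to 0.0152.

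Here control and outlier spots were removed, log2 intensities of a probe's spots averaged, and each array's 75th percentile subtracted. Of 41012 probes, the 23982 that every array of either group showed well above background were used, named through the RefSeq accession, and the brightest was used per gene. A probe without a matched symbol kept the array's own sequence name as its gene. The comparison used limma 3.58.1 (R 4.3.3), two-sided and without covariates, after a check on simulated data. The alternatives are other scalings, background correction, probe filters, probe rules and variance models, slide or replicate blocks, fits within slides and each rat left out. Members, lists and tests were chosen with earlier results of these data known. The named genes are the members, in each list the 3 with the lowest p, and the 3 most like Egf, Hbegf, Egfr and Errfi1. Some genes that meet this rule are not reported here.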

Additional observations from a re-analysis of the deposited data

Results flagged for a closer look

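No member had a sample that stood apart from the other 3 of its group by Dixon's test. Among the 118 groups of 4 values tested, 6 did, where chance gives about 5% (5.9 groups). The podocyte gene Nphs1 had -3.33 in sham rat 3, against 1.38 to 1.68 in the other sham rats, on a probe of 1 spot per array. The leukocyte gene Csf1r had -0.87 in sham rat 2, against -1.34 to -1.31. Ptprc, another leukocyte gene, had -2.32 in sham rat 1, against -2.05 to -2.01, and Hyal3 had -2.85 in the same rat, against -2.61 to -2.58. The proximal tubule gene Lrp2 had 6.37 in nephrectomized rat 3, against 6.17 to 6.19, and the endosomal gene Usp8 had -0.54 in nephrectomized rat 1, against -0.29 to -0.27.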

How the results depend on the processing

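Of the 20 alternatives with all or 7 of the 8 rats, Errfi1 kept its direction in 20 and its call in 17, with log2 fold changes of -0.75 to -0.59. The count of members called was 0 without the filter on dim probes, 2 with an intensity trend and robust estimation, 3 with array weights, and 0 within slide 1 and within slide 2, where 2 rats per group remain. It was 0 to 2 with each rat left out: 0 without sham rat 3 and 2 without sham rat 1. The count over all genes was 714 and became 282 without the filter, where 35237 genes were tested, 2520 with array weights, 0 within slide 1 (limma; 1632 genes had an unadjusted p below 0.05) and 141 within slide 2. It was 341 to 720 with each rat left out, and moved by over 1.5 times without nephrectomized rat 2 or 4 (457 and 342) or sham rat 2, 3 or 4 (396, 341 and 427). The lower genes among them, 203 with all rats, were 89 and 57 without nephrectomized rat 2 or 4, 79, 61 and 93 without sham rat 2, 3 or 4, 38 without the filter, 53 with the replicate block, 1129 with array weights, and 0 and 4 within slides 1 and 2. Of pathway genes 1, Etv4, passed with every probe on its own, on a probe well above background in 4 of 4 nephrectomized and 1 of 4 sham rats, which passed the filter only through the group where it is high. The difference of Egf from its segment markers was 0.0716 with normexp (p = 0.0286, exact permutation test) and 0.0801 with quantile normalization (p = 0.114, same test). It was 0.0359 within slide 1 and 0.11 within slide 2. The 2 members with values near 0 changed sign: Hbegf to -0.13 within slide 2 and over -0.052 to 0.105 with each rat left out, and Erbb3 to 0.0747 with normexp, 0.0919 with array weights, 0.28 within slide 2 and over -0.0927 to 0.0695 with each rat left out. Where no cause is given, the cause was not tested. The labels do not say whether the replicate numbers pair the rats. Same-numbered samples lay on the same slide and deviated together at correlations of -0.0176 to 0.103, which cannot decide whether they were paired. With the replicate block 296 genes and 0 members were called, and Errfi1 had an adjusted p = 0.0741 by limma. The difference of Egf from its markers then gave p = 0.125 by an exact sign-flip test. Each nephrectomized sample lay above the sham sample of the same number. This p is therefore the smallest that the 16 sign assignments allow, and the test could not have passed 0.05. The fits within slides were chosen after seeing the data. Signal over background limits what can be said of Ereg, Btc and Tgfa.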
